A study of Mus musculus with 20 samples.

Results

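The 4 genotypes of this mouse islet RNAseq study form a factorial design, in which *Mfn1* and *Mfn2* were each intact or deleted in β-cells. All 20 of the 20 libraries were used: 6 Ctrl, 4 β-Mfn1KO, 5 β-Mfn2KO and 5 β-Mfn1/2DKO. For every gene the change that came with loss of *Mfn1* in the absence of *Mfn2* (β-Mfn1/2DKO against β-Mfn2KO) was compared with the change that came with loss of *Mfn1* in its presence (β-Mfn1KO against Ctrl). The difference of these 2 log2 changes is called the interaction here, and it is 0 where the double knockout equals the sum of the single knockouts. The question was which genes responded to loss of both mitofusins by more than that sum, by less, or by just that sum.

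All mice were 12 weeks old and on the C57BL/6N background, and their whole islets were isolated with collagenase and cultured for 24 hours before RNA extraction. β-Mfn1KO mice carried *Mfn1* loxP/loxP, β-Mfn2KO mice carried *Mfn2* loxP/loxP and β-Mfn1/2DKO mice carried both, each together with *Ins1*-Cre, a knock-in that expresses the recombinase from an insulin gene and so in β-cells. The labels call these groups Mfn1.KO, Mfn2.KO and Mfn1/2.KO, and give the controls as wild type, while the methods describe controls as mice with Cre alone or floxed alleles alone. Whatever all 3 knockout groups share, the Cre allele included, therefore counts 2 times in the sum of the single knockouts and 1 time in the double knockout. Females and males numbered 3 and 3 in Ctrl, 3 and 1 in β-Mfn1KO, 2 and 3 in β-Mfn2KO, and 2 and 3 in β-Mfn1/2DKO. The islet cells that do not express insulin kept both mitofusins, and the counts sum over all cells.

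Mitofusin 1 and mitofusin 2 are GTPases of the outer mitochondrial membrane that tether neighbouring mitochondria and fuse them, each able to act alone or with the other. Fusion keeps the copies of mitochondrial DNA (mtDNA) mixed and replicating, and mtDNA encodes core subunits of the respiratory chain. In β-cells the ATP made by respiration closes potassium channels and so triggers insulin release, and genes such as *Slc2a2*, *Mafa* and *Ucn3* mark the mature state of the cell.

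The loxP sites flank exon 4 of *Mfn1* and exon 6 of *Mfn2*. That of *Mfn1* is shown because it is what the design removes, as read from the GRCm38 genome at a GENCODE M21 transcript of 18 exons. It is wholly coding and 163 bases long, which leaves a remainder of 1 after division by 3, so that an mRNA without it changes reading frame.
*Mfn1* exon 4, chr3:32538270-32538432, plus strand: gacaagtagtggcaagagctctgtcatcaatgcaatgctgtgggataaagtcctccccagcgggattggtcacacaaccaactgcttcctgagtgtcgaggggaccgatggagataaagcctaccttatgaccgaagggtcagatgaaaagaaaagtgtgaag
The deposited counts are over whole genes and not over these exons, so the values that follow measure the remaining mRNA and not the deletion itself.

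The targeted genes were low where the labels say so, and their responses added up. In Ctrl, *Mfn1* lay between 1518 and 1807 normalized counts with a median of 1693. Beside it stood 770.4, 621, 631 and 674 in β-Mfn1KO, 1712, 1711, 1682, 1807 and 1693 in β-Mfn2KO and 690.3, 691, 687, 856 and 1062 in β-Mfn1/2DKO. Every library with the floxed *Mfn1* genotype and Cre lay below every other library. The values of replicates 4 and 5 of β-Mfn1/2DKO were the highest among these 9, and the same 2 libraries held the most acinar RNA (below). Ctrl libraries held 3089 to 4373 normalized counts of *Mfn2*, with 3252 at the median. Values were 4399, 3869, 4607 and 4535 in β-Mfn1KO, 1532, 1586, 1688, 1474 and 1608 in β-Mfn2KO and 2022, 2082, 2062, 2131 and 2124 in β-Mfn1/2DKO. Both groups with the *Mfn2* deletion lay below the other groups, and β-Mfn1/2DKO lay above β-Mfn2KO with no overlap. Interactions were 0.20 ± 0.14 (SE, adjusted p = 0.52) for *Mfn1* and 0.090 ± 0.11 (SE, adjusted p = 0.77) for *Mfn2*, both with 95% intervals inside a 1.5-fold change either way. The difference in *Mfn2* between β-Mfn1/2DKO and β-Mfn2KO was about the size of that between β-Mfn1KO and Ctrl (0.31 on the log2 scale).

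Library depth was tied to genotype. Total counts ran from 12.4 to 20.3 M in Ctrl, from 15.7 to 16.7 in β-Mfn1KO, from 15.1 to 59.5 in β-Mfn2KO with 2 libraries above 40 M, and from 65.5 to 122.9 in β-Mfn1/2DKO. Counts were scaled to a common depth by the trimmed mean of M-values (TMM), and normalized counts are given at the mean effective library size. All 28632 genes were tested with the quasi-likelihood test of edgeR, and genes are called here where the Benjamini-Hochberg adjusted p was under 0.05 and the fold over 1.5. Each adjusted p comes from that fit unless another fit or a left-out library is named beside it. The study gives the number in each group as mice. At equal effects the deep libraries are the more precise ones. A fit with depth class (above 40 M counts) as a covariate and a fit with the 2 deep β-Mfn2KO libraries alone were run beside it. Calls that either ended are given for the genes followed through these fits. Some genes named in passing were not followed there.

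Loss of both mitofusins changed many genes by more than the sum of the single losses. The interaction was called in 784 of 28632 genes (2.74%), 388 of them positive (1.36%) and 396 negative (1.38%), and in 1694 genes (5.92%) by the adjusted p alone. Of 12274 genes averaging 100 normalized counts or more, 661 were called (5.39%). Single losses gave few calls against Ctrl, namely 7 genes in β-Mfn1KO (0.0244%) and 15 in β-Mfn2KO (0.0524%), while 2130 and 1208 genes had an unadjusted p under 0.05. The first count was 21 without Ctrl replicate 1, 4 without Ctrl replicate 4 or β-Mfn1KO replicate 2 and 3 without Ctrl replicate 5 or β-Mfn1KO replicate 4. β-Mfn1/2DKO differed from Ctrl in 1491 genes (5.21%), with 928 higher (3.24%) and 563 lower (1.97%). With *Mfn2* absent, loss of *Mfn1* changed 1099 genes (3.84%). With total counts in place of TMM, 998 genes were called and 75.4% of them were positive, against 49.5% here, and the median interaction of all genes moved from 0.035 to 0.16.

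By the direction of the fitted changes, 647 of the 784 genes were synergistic, meaning that the change in β-Mfn1/2DKO exceeded the sum of the single changes in size. Of these, 306 were higher and 341 lower in β-Mfn1/2DKO than the sum. Another 93 were buffered, with a change in β-Mfn1/2DKO smaller than the sum, and 44 were reversed, with changes of over 1.5-fold in opposite directions. Of the 483 synergistic genes that also passed the call against Ctrl, 445 had both single changes within 1.5-fold. The buffered count moved most with single libraries, to 150 without Ctrl replicate 1, 57 without Ctrl replicate 6, 45 without β-Mfn1KO replicate 2 and 59 without β-Mfn2KO replicate 2 or β-Mfn1/2DKO replicate 5, and the reversed count to 67 and 73 without β-Mfn2KO replicates 4 and 5. A lesser change of the same sign at an unadjusted p under 0.05 was present in β-Mfn2KO for 56 of the 483 and in β-Mfn1KO for 3. In 467 of the 784 genes the 5 β-Mfn1/2DKO libraries all lay above or all lay below the other 15, which was so for 1573 of all genes tested.

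Sums of log2 changes are products of folds, so the scale matters. On the normalized count scale, where additivity means adding differences, the interaction kept its sign in 782 of the 784 called genes. The exceptions were *Ins1* and *Cldn11*, each with an SE on the count scale larger than its value.

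**Figure D1:**
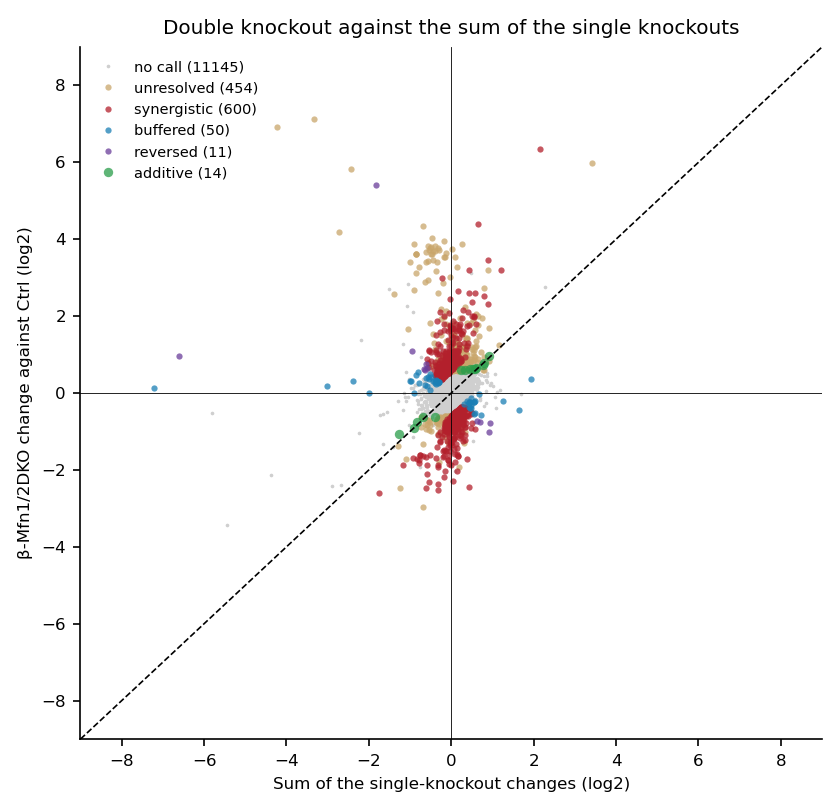
Each point is 1 of the 12274 genes that average 100 normalized counts or more. The horizontal axis gives the sum of its log2 changes in β-Mfn1KO and β-Mfn2KO against Ctrl, the vertical axis its log2 change in β-Mfn1/2DKO, and the dashed line marks equality. The 600 synergistic genes spread up and down close to the vertical zero line, where the sum of single changes is small, while the 50 buffered and 11 reversed genes lie away from it and the 14 additive genes lie on the dashed line.

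Among the synergistic genes that were higher, *Gpt2* had the smallest p of any gene. *Gpt2* (chr8:85492576-85527560, plus strand) encodes the mitochondrial alanine aminotransferase, which links alanine and glutamate to pyruvate and 2-oxoglutarate. It is outside the naming rule and was chosen for its p. For *Gpt2*, the lowest Ctrl library had 1009 normalized counts, the highest 1506 and the median was 1319.8. The β-Mfn1KO libraries had 1583, 1388, 1227 and 1209, the β-Mfn2KO libraries 1185, 1086, 1346, 1363 and 1394 and the β-Mfn1/2DKO libraries 4577, 5089, 5104, 5335 and 3648. The 15 other libraries shared 1 range, and all 5 β-Mfn1/2DKO libraries lay above it. The log2 change was 0.061 in β-Mfn1KO, −0.018 in β-Mfn2KO and 1.88 in β-Mfn1/2DKO, for an interaction of 1.83 ± 0.16 (SE, adjusted p = 1.3e-06).

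*Stc2* (chr11:31357307-31370074) encodes stanniocalcin 2, a secreted glycoprotein that rises in cell stress. *Stc2* levels reached 95.9 normalized counts in Ctrl from a lowest 15.2 (median 65.2). They were 112, 68.7, 59.6 and 85.9 in β-Mfn1KO, 53.6, 53.6, 29.6, 146 and 59.4 in β-Mfn2KO and 1088, 1357, 1022, 1783 and 1389 in β-Mfn1/2DKO. No library of the other groups passed 146, and no β-Mfn1/2DKO library was under 1022. The interaction was 3.77 ± 0.52 (SE, adjusted p = 2.2e-04). *Vmn2r3*, annotated as a vomeronasal receptor gene, had a larger estimate still. Normalized counts of *Vmn2r3* in Ctrl spanned 3.51 to 32.0 around a median of 17.1. β-Mfn1KO had 44.7, 27.5, 24.8 and 13.9, β-Mfn2KO had 22.6, 22.3, 202, 22.7 and 26.4 and β-Mfn1/2DKO had 1243, 1477, 805, 2010.1 and 1655. Replicate 3 of β-Mfn2KO alone was raised among the other libraries. Its interaction was 4.19 ± 0.96 (SE, adjusted p = 0.01), and it was 5.27 without that library.

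*Stbd1*, a glycogen-binding protein, and *Sgip1*, a factor of clathrin-mediated endocytosis, had interactions of 2.50 ± 0.45 (SE, adjusted p = 0.0017) and 2.56 ± 0.43 (SE, adjusted p = 0.001). *Ptger3* and *Gpr135*, a prostaglandin E receptor and an orphan receptor, reached 2.47 ± 0.38 (SE, adjusted p = 4.7e-04) and 2.39 ± 0.42 (SE, adjusted p = 0.0014). Across these 4 genes every β-Mfn1/2DKO library lay above every other library. For the largest synergistic interactions this lack of overlap was a condition of being named, and not a result. *Stbd1* ran from 277 to 747 normalized counts in Ctrl (median 417). It stood at 449, 322, 315 and 316 in β-Mfn1KO, at 285, 344, 1214, 864 and 494 in β-Mfn2KO and at 1940.5, 2582, 2309, 3068 and 4282 in β-Mfn1/2DKO. The β-Mfn2KO libraries numbered 3 and 4 were the nearest to the double knockout. In Ctrl, *Ptger3* lay between 32.0 and 91.0 normalized counts with a median of 73.8. Beside it stood 53.04, 74.2, 37.3 and 63.8 in β-Mfn1KO, 59.2, 62.5, 88.8, 93.3 and 66.7 in β-Mfn2KO and 441, 254, 321, 279 and 492 in β-Mfn1/2DKO. The other libraries stayed at or below 93.3. *Phyhd1*, a dioxygenase gene, had 3.21 ± 0.43 (SE, adjusted p = 1.6e-04). It shares 33.9% of its stretches of 75 bases with read-through transcripts annotated as separate genes, so reads could be split between them.

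**Figure D2:**
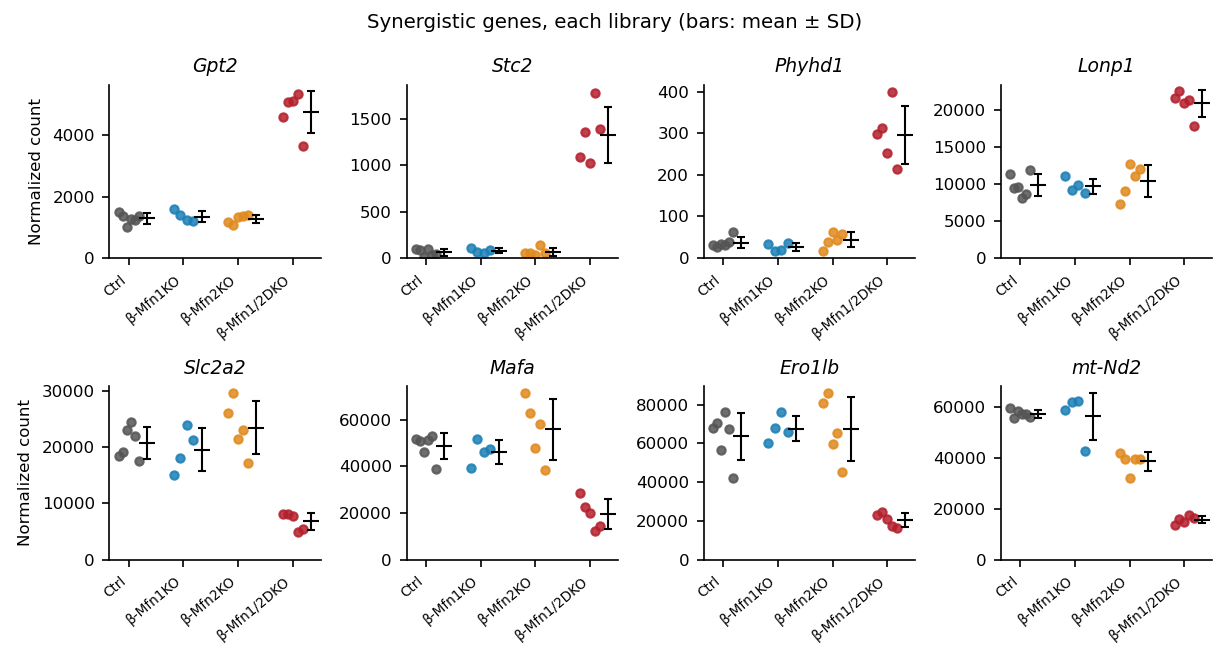
Normalized counts of 8 synergistic genes (vertical axes, from 0) in every library of the 4 groups, with the mean ± SD beside the points. *Gpt2*, *Stc2*, *Phyhd1* and *Lonp1* stand higher in all 5 β-Mfn1/2DKO libraries than in any other library, and *Slc2a2*, *Mafa*, *Ero1lb* and *mt-Nd2* stand lower in all 5. Some of these genes were named under a rule that required no overlap.

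A minor part of the listed genes of the integrated stress response rose by more than the sum. In this response phosphorylated eIF2α favours translation of the factor ATF4, which with partners turns on genes for amino acid supply, redox balance and feedback. Of 31 listed targets and factors, 5 were called higher and 0 lower by edgeR (6 passed the adjusted p alone), with a median interaction of 0.34 against 0.035 over all genes. Another 25 did not pass the adjusted p, and of all genes 1.36% were called higher. The 5 were *Stc2*, *Nupr1*, *Trib3*, *Sesn2* and *Vldlr*, with *Nupr1* named after its values were seen. Ctrl libraries held 1799 to 4591 normalized counts of *Trib3*, with 2869 at the median. Values were 4449.5, 4094, 2652 and 2295 in β-Mfn1KO, 2477, 1941, 4119, 2899 and 3449 in β-Mfn2KO and 11620, 13334, 11855, 10871 and 7922 in β-Mfn1/2DKO. *Trib3*, a pseudokinase that restrains the response, thus ran above all others in β-Mfn1/2DKO, with an interaction of 1.68 ± 0.34 (SE, adjusted p = 0.0042). For *Sesn2*, the lowest Ctrl library had 6063 normalized counts, the highest 7184 and the median was 6426. The β-Mfn1KO libraries had 7880.2, 6797, 6147 and 6799.8, the β-Mfn2KO libraries 7053, 6337, 8474, 6423 and 6449.7 and the β-Mfn1/2DKO libraries 12079, 12113, 12654, 11939 and 10499. *Sesn2*, an inhibitor of mTORC1 signalling, had 0.69 ± 0.12 (SE, adjusted p = 0.001), and again no overlap. The lipoprotein receptor gene *Vldlr* reached 0.63 ± 0.12 (SE, adjusted p = 0.0022) with a change of 0.56 in β-Mfn1/2DKO. Its fold fell below 1.5 without Ctrl replicate 1 or β-Mfn1KO replicate 4, at interactions of 0.58 and 0.56, and with depth class in the fit (0.57). Without that β-Mfn1KO library 3 members of the list were called.

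*Nupr1*, a stress-induced chromatin protein that pancreatic acinar cells also express, moved with 2 libraries. *Nupr1* levels reached 7998 normalized counts in Ctrl from a lowest 2462 (median 6056). They were 4938, 4152, 3122 and 3892 in β-Mfn1KO, 2189, 7161, 9772, 27560 and 8193 in β-Mfn2KO and 15380, 19778, 19880, 72494 and 135770 in β-Mfn1/2DKO. The libraries numbered 4 and 5 of β-Mfn1/2DKO and the one numbered 4 of β-Mfn2KO stood highest, and these are the libraries with the most acinar RNA in their groups. The interaction of 2.77 ± 0.80 (SE, adjusted p = 0.043) was lost without β-Mfn1/2DKO replicates 4 and 5 (adjusted p = 0.32). It also missed the threshold with depth class (0.26), with the deep β-Mfn2KO libraries alone (0.24), with the replicate number as a block (0.054) and without any 1 of 14 libraries in turn (up to 0.10). *Slc3a2*, an amino acid transporter subunit, passed the adjusted p alone at 0.35, while the transcription factors *Atf4*, *Ddit3* and *Atf3* did not pass the test. *Atf4*, whose product is controlled mostly through translation, had −0.011 ± 0.15 (SE, adjusted p = 1), *Ddit3* 1.19 ± 0.43 (SE, adjusted p = 0.11) and *Atf3* 1.35 ± 0.47 (SE, adjusted p = 0.096). Against Ctrl, *Ddit3* and *Atf3* were called higher in β-Mfn1/2DKO, at 1.95 and 1.83. Enzymes of asparagine, serine and one-carbon synthesis on the list did not pass the adjusted p either. They were *Asns* (−0.23), *Psat1* (−0.15), *Psph* (−0.19), *Shmt2* (−0.39), *Mthfd2* (−0.041), *Aldh1l2* (−0.31) and *Phgdh* (0.048). None of the 18 cytosolic aminoacyl-tRNA synthetases, many of them ATF4 targets, was called, and their median was −0.063.

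ATF4 and C/EBP proteins bind a composite element, here searched as TGATGNAA on both strands (with N any 1 base) from 250 bases before to 50 after each RefSeq gene start on GRCm38.p6. It was found in 1304 of 32851 promoters (3.97%). Of the 27 listed genes that had a promoter, 10 held it in at least 1 of their promoters (37.0%). The first share is per promoter and the second per gene, and some listed genes have more than 1 promoter. Because the list was drawn up as ATF4 targets and factors, the shares are not a test. Of the 5 called genes, *Nupr1*, *Vldlr* and *Trib3* hold the motif, and *Stc2* and *Sesn2* have no match in this window. The 3 windows are shown because they hold the match, in capitals on the gene's strand as the reverse complement of the motif. The match starts at position −110 in *Nupr1*, −200 in *Vldlr* and 15 in *Trib3* from the gene start. A match is a description of the letters and not evidence of binding.
*Nupr1*, chr7:126625471-126625720, minus strand: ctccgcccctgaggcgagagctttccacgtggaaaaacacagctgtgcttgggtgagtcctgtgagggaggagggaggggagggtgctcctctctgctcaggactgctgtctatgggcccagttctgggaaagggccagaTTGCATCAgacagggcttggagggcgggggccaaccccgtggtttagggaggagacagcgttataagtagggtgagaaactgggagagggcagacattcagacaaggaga
*Vldlr*, chr19:27216770-27217019, plus strand: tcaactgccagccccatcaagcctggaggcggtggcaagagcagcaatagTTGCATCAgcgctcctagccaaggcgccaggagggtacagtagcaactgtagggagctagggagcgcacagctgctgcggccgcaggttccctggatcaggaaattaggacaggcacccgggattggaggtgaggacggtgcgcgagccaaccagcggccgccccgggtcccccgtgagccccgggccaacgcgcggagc
*Trib3*, chr2:152344031-152344060, minus strand: agattagctcaggtTTACATCAgccgggcg

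Few mitochondrial upkeep genes were called, where 5.39% of genes averaging 100 normalized counts or more were called in either direction. *Lonp1*, the matrix protease that degrades TFAM and damaged proteins, stood out among 16 chaperones and proteases as the member called (median of the list −0.027). By the adjusted p alone 2 members of that list were higher and 2 lower, the latter being *Hspe1* (−0.46) and *Yme1l1* (−0.28). Normalized counts of *Lonp1* in Ctrl spanned 8159 to 11870 around a median of 9474. β-Mfn1KO had 11040, 9131, 9827 and 8726, β-Mfn2KO had 7315, 9079.9, 12647, 11021 and 11985 and β-Mfn1/2DKO had 21628, 22583, 20872, 21332 and 17867. The 5 β-Mfn1/2DKO libraries lay above all others, with an interaction of 1.02 ± 0.18 (SE, adjusted p = 0.0013). Of 22 genes of mtDNA replication and nucleoids, *Lonp1* and *Slc25a33* were called higher and 0 lower, around a median of 0.11. *Slc25a33* ran from 116 to 149 normalized counts in Ctrl (median 134). It stood at 195, 192, 119 and 147 in β-Mfn1KO, at 138, 165, 172, 135 and 162 in β-Mfn2KO and at 368, 405, 294, 438 and 438 in β-Mfn1/2DKO. *Slc25a33*, a carrier of pyrimidine nucleotides into mitochondria, again had its β-Mfn1/2DKO libraries apart, and its interaction was 1.03 ± 0.21 (SE, adjusted p = 0.0036). It lies 1.87 Mb from *Mfn2* and shares 11.4% of its 75-base stretches with a neighbouring gene. *Nrf1*, a transcription factor for respiratory genes, was the called member of 10 biogenesis regulators, at 0.82 ± 0.16 (SE, adjusted p = 0.0029). *Dnaja3*, a mitochondrial co-chaperone, passed the adjusted p at a fold under 1.5, at 0.57 ± 0.12 (SE, adjusted p = 0.0045). The mitochondrial topoisomerase gene *Top1mt* had 0.89 ± 0.34 (SE, adjusted p = 0.14), while it was called higher in β-Mfn1/2DKO against Ctrl (1.04, adjusted p = 0.0018). For *Tfam*, which packages and transcribes mtDNA, the interaction was 0.097 ± 0.080 (SE, adjusted p = 0.6) with a 95% interval from −0.070 to 0.26.

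Few lipid genes had a called interaction. Of 26 targets of the PPAR receptors and regulators of triglyceride, *Cpt1a* and *Plin2* were called higher and 0 lower (median 0.35), where 5.39% of genes averaging 100 normalized counts or more were called in either direction. In Ctrl, *Cpt1a* lay between 1742 and 2537 normalized counts with a median of 2091. Beside it stood 1764, 1490.3, 1714 and 1924 in β-Mfn1KO, 2124, 1881, 3214, 2156 and 1866 in β-Mfn2KO and 3690, 3319, 4026, 3886 and 4286 in β-Mfn1/2DKO. *Cpt1a*, which admits long-chain fatty acids into mitochondria, had β-Mfn1/2DKO above every other library and an interaction of 1.09 ± 0.18 (SE, adjusted p = 7.5e-04). *Plin2*, a lipid droplet coat protein, was at 0.95 ± 0.28 (SE, adjusted p = 0.048), and its call was lost without any 1 of 12 libraries in turn (adjusted p up to 0.11), with depth class (0.26), with the deep β-Mfn2KO libraries alone (0.25) and without β-Mfn1/2DKO replicates 4 and 5 (0.19). The lipoprotein lipase inhibitors *Angptl4* and *Angptl8* had 2.18 ± 0.95 (SE, adjusted p = 0.21) and 1.13 ± 0.47 (SE, adjusted p = 0.18), so neither passed the test of the interaction. Against Ctrl both were called higher in β-Mfn1/2DKO, at 2.28 (adjusted p = 0.0074) and 1.82 (adjusted p = 1.9e-04). In that comparison 6 of the 26 genes were called, against 5.21% of all genes. All 16 genes of the disallowed list, which mature β-cells keep silent, had positive estimates (median 0.95), while the median of 18 glycolysis genes was −0.016.

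Many β-cell genes fell beyond the sum. Of 31 genes of β-cell identity and function, 12 were called lower and 0 higher, with a median interaction of −0.43. Over all genes 1.38% were called lower. They were *Ins1*, *Ins2*, *Mafa*, *Nkx6-1*, *Slc2a2*, *G6pc2*, *Ucn3*, *Pcsk1*, *Iapp*, *Gipr*, *Ero1lb* and *Sytl4*. Ctrl libraries held 17626 to 24562 normalized counts of *Slc2a2*, with 20512 at the median. Values were 15149, 18051, 23886 and 21289 in β-Mfn1KO, 26134, 29677, 21391, 23031 and 17263 in β-Mfn2KO and 8098, 8064, 7695, 4924 and 5521 in β-Mfn1/2DKO. For *Slc2a2* (chr3:28697903-28731359), the glucose transporter of the β-cell, the single knockouts overlapped Ctrl and β-Mfn1/2DKO lay below every library. The interaction was −1.69 ± 0.22 (SE, adjusted p = 1.2e-04), and the gene lies 3.83 Mb from *Mfn1*. For *Mafa*, the lowest Ctrl library had 38736 normalized counts, the highest 53144 and the median was 51175. The β-Mfn1KO libraries had 39228, 51827, 46012 and 47488, the β-Mfn2KO libraries 71562, 63119, 47980, 58412 and 38389 and the β-Mfn1/2DKO libraries 28431, 22662, 19945, 12484 and 14578. *Mafa* (chr15:75745490-75748228), a transcription factor for insulin genes, had −1.43 ± 0.25 (SE, adjusted p = 0.0013) and a change of −1.31 in β-Mfn1/2DKO. Its lowest values were in replicates 4 and 5 of β-Mfn1/2DKO. Within β-Mfn2KO its highest values were those of the females, replicates 1 and 2, and the call was kept with sex as a covariate.

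*G6pc2*, a glucose-6-phosphatase that opposes glucokinase, and *Ucn3*, a peptide of mature β-cells, gave −1.19 ± 0.15 (SE, adjusted p = 9.9e-05) and −1.36 ± 0.18 (SE, adjusted p = 1.6e-04). *Ucn3* levels reached 16371 normalized counts in Ctrl from a lowest 12762 (median 14872). They were 13002, 14262, 15902 and 17431 in β-Mfn1KO, 16503, 16342, 13164, 13462 and 11317 in β-Mfn2KO and 6264, 7014, 6389.8, 4642 and 4214 in β-Mfn1/2DKO. Single knockouts ran within or near the Ctrl range, below which all β-Mfn1/2DKO libraries lay. *Ero1lb*, the endoplasmic reticulum (ER) oxidase that helps proinsulin fold, fell most of these. Normalized counts of *Ero1lb* in Ctrl spanned 42289 to 76251 around a median of 67715. β-Mfn1KO had 60303, 68027, 76244 and 65889, β-Mfn2KO had 80764, 86073, 59722, 65282 and 45172 and β-Mfn1/2DKO had 22868, 24364, 21118, 17100 and 16434. Its interaction was −1.81 ± 0.23 (SE, adjusted p = 8.9e-05). *Sytl4*, an insulin granule docking protein, had −1.28 ± 0.17 (SE, adjusted p = 2.0e-04) and, like *Ins2*, was named after its values were seen. Smaller interactions were those of *Nkx6-1* −0.77, *Pcsk1* −1.07, *Iapp* −0.72 and *Gipr* −0.70, a transcription factor, a prohormone convertase, the islet amyloid peptide and an incretin receptor.

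The insulin genes differed from each other. *Ins2* ran from 3948000 to 6530600 normalized counts in Ctrl (median 4740000). It stood at 5798900, 5950400, 4777300 and 6112600 in β-Mfn1KO, at 5885300, 4904400, 4447200, 5513300 and 4225400 in β-Mfn2KO and at 2588400, 2459600, 2333500, 2324600 and 1858700 in β-Mfn1/2DKO. *Ins2* was close to Ctrl in both single knockouts and lower in all 5 β-Mfn1/2DKO libraries, with an interaction of −1.31 ± 0.19 (SE, adjusted p = 3.7e-04). In Ctrl, *Ins1* lay between 1065900 and 1962300 normalized counts with a median of 1344600. Beside it stood 807730, 844390, 658270 and 960920 in β-Mfn1KO, 844700, 730200, 715510, 827550 and 650440 in β-Mfn2KO and 265790, 252450, 231510, 239290 and 202300 in β-Mfn1/2DKO. *Ins1*, which carries the Cre insertion in the knockout mice, was already lower in every single-knockout library, by −0.82 and −0.94 on the log2 scale, and stood at −2.60 in β-Mfn1/2DKO. Its interaction of −0.84 ± 0.20 (SE, adjusted p = 0.011) missed the threshold with the deep β-Mfn2KO libraries alone (−0.80, adjusted p = 0.067) and without β-Mfn1/2DKO replicates 4 and 5 (−0.75, adjusted p = 0.067). On the count scale its estimate turned sign, to 110970 ± 152590 (SE) normalized counts more than the sum of the single losses predicts. The SE exceeds the value, so the sign on that scale is not resolved.

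mRNAs encoded by mtDNA fell in steps. Their share of all counts was 1.86 ± 0.114% in Ctrl (SD over 6 libraries), 1.78 ± 0.180% in β-Mfn1KO (4 libraries), 1.15 ± 0.0438% in β-Mfn2KO (5 libraries) and 0.636 ± 0.0705% in β-Mfn1/2DKO (5 libraries). Of the 13 mRNAs, 11 had a called negative interaction and 0 a positive one, where 1.38% of all genes were called lower. The median log2 change was −0.059 in β-Mfn1KO, −0.68 in β-Mfn2KO and −1.73 in β-Mfn1/2DKO, and the median interaction was −0.95. In β-Mfn2KO, 9 of the 13 passed the call, and in β-Mfn1/2DKO all 13 did, against 0.0524% and 5.21% of all genes. Ctrl libraries held 55719 to 59690 normalized counts of *mt-Nd2*, with 57174 at the median. Values were 59103, 61882, 62271 and 42828 in β-Mfn1KO, 42084, 39686, 32253, 39791 and 39433 in β-Mfn2KO and 13716, 16055, 14792, 17511 and 16348 in β-Mfn1/2DKO. *mt-Nd2*, a complex I subunit, showed the order plainly, with β-Mfn2KO below Ctrl, β-Mfn1/2DKO below β-Mfn2KO and β-Mfn1KO near Ctrl except for replicate 4. Its interaction was −1.28 ± 0.13 (SE, adjusted p = 1.4e-05).

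Both genes without a call were complex I subunits as well. For *mt-Nd5*, the lowest Ctrl library had 65400 normalized counts, the highest 104270 and the median was 91488. The β-Mfn1KO libraries had 87701, 89975, 87201 and 54956, the β-Mfn2KO libraries 51036, 48504, 43939, 45234 and 40195 and the β-Mfn1/2DKO libraries 21826, 26159, 26486, 26976 and 32537. *mt-Nd5*, named after its values were seen, fell in β-Mfn2KO by 0.95 and in β-Mfn1/2DKO by 1.72 on the log2 scale, with an interaction of −0.63 ± 0.19 (SE, adjusted p = 0.052). *mt-Nd4l* had −1.23 ± 0.49 (SE, adjusted p = 0.17). *mt-Nd1* and *mt-Nd4* reached −1.09 ± 0.15 (SE, adjusted p = 2.0e-04) and −1.03 ± 0.15 (SE, adjusted p = 2.4e-04). *mt-Atp6*, of the ATP synthase, had −0.94 ± 0.13 (SE, adjusted p = 2.2e-04). Nearly identical nuclear copies could share reads with some of them, since 99.5% of the 75-base stretches of *mt-Atp6* and 61.5% of those of *mt-Nd4* occur in another annotated gene, against 5.7% for *mt-Nd2*.

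*mt-Atp8* had the most negative interaction of the 13. *mt-Atp8* levels reached 638 normalized counts in Ctrl from a lowest 391 (median 519.5). They were 555, 531, 477 and 363 in β-Mfn1KO, 307, 377, 336, 698 and 800.4 in β-Mfn2KO and 101, 126, 123.1, 132 and 158 in β-Mfn1/2DKO. The β-Mfn2KO libraries split by depth, with 307 to 377 in the 3 shallow ones and 698 and 800.4 in the 2 deep ones. The interaction of −1.89 ± 0.31 (SE, adjusted p = 7.5e-04) was −1.30 with the shallow β-Mfn2KO libraries alone and −2.42 with the deep ones, called each time. The ribosomal RNA *mt-Rnr1*, named after its values were seen, went another way in the single knockouts. Normalized counts of *mt-Rnr1* in Ctrl spanned 4814 to 5939.5 around a median of 5408. β-Mfn1KO had 7068, 7998, 6338 and 6922, β-Mfn2KO had 7927, 5915, 4714, 6074 and 6160.4 and β-Mfn1/2DKO had 2339.9, 2518, 2552, 3114 and 3546. β-Mfn1KO lay above every Ctrl library, while β-Mfn1/2DKO lay below all others, and the interaction was −1.51 ± 0.16 (SE, adjusted p = 2.0e-05).

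**Figure D3:**
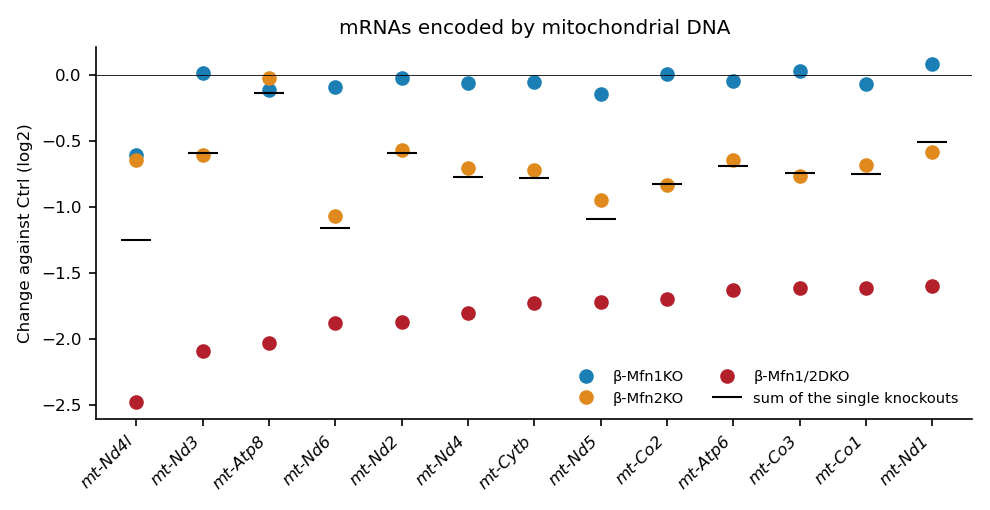
Log2 change against Ctrl (vertical axis) of the 13 mRNAs encoded by mtDNA (horizontal axis) in β-Mfn1KO, β-Mfn2KO and β-Mfn1/2DKO, each from the fit over 20 libraries, with a black dash at the sum of the single knockouts. Every β-Mfn1/2DKO point lies below its dash, and β-Mfn2KO lies below β-Mfn1KO for all mRNAs but *mt-Atp8*.

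With the fold threshold, nuclear genes of respiration were called at about the share of all genes, which was 2.74%, or 5.39% at 100 normalized counts or more. Of 36 nuclear complex I subunits, *Ndufa1* was called lower (−0.74 ± 0.15 (SE, adjusted p = 0.0041)), and of 34 subunits of complexes III to V, *Uqcrb* (−0.63 ± 0.12 (SE, adjusted p = 0.0021)) and *Cox7b* (−0.59 ± 0.14 (SE, adjusted p = 0.014)) were. List medians were −0.16 and −0.24, and none was called higher. By the adjusted p alone 6 of the 36 and 8 of the 34 were lower and 0 higher. Over all 28632 genes, 868 were lower and 826 higher by that measure. The *Uqcrb* call was lost without replicate 4 or 5 of β-Mfn2KO (fold under 1.5) and that of *Cox7b* without any 1 of 10 libraries, also for its fold, and 5 genes of that list were called without β-Mfn1KO replicate 3. That list held 9 called genes with depth class or with the deep β-Mfn2KO libraries alone and none with the shallow ones or without β-Mfn1/2DKO replicates 4 and 5, and *Ndufa1* was under 1.5-fold with the shallow ones (−0.54). None of 17 other genes of mitochondrial fusion and fission was called. Among these *Gdap1*, *Yme1l1* and *March5*, a fission factor, an inner membrane protease and a ubiquitin ligase, passed the adjusted p alone at −0.30, −0.28 and 0.26.

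A number of ER chaperone and unfolded protein response genes had negative interactions. This response raises folding capacity when unfolded proteins load the ER, and insulin is the main load of a β-cell. Of 23 genes, 9 were called lower and 0 higher, with a median of −0.58, where 1.38% of all genes were called lower. The 9 were *Hsp90b1*, *Calr*, *Pdia6*, *P4hb*, *Dnajb9*, *Dnajc3*, *Sdf2l1*, *Hyou1* and *Manf*. By the adjusted p alone 12 were lower and 2 higher, the latter being *Ern1* (0.55) and *Edem1* (0.47). *Edem1* was also called higher in β-Mfn1/2DKO against Ctrl, at 0.67. *Sdf2l1* ran from 2864 to 8016 normalized counts in Ctrl (median 5699). It stood at 9951, 9514, 7378 and 7562 in β-Mfn1KO, at 5910.1, 6239, 3276, 4276 and 3661 in β-Mfn2KO and at 2206, 3050.2, 2465, 2413 and 1956 in β-Mfn1/2DKO. The HSP40-binding ER protein *Sdf2l1* overlapped Ctrl in β-Mfn1/2DKO at Ctrl replicate 6, the lowest of its group, while the β-Mfn1KO libraries ran from 7378 to 9951 against a Ctrl median of 5699. Its interaction was −1.53 ± 0.31 (SE, adjusted p = 0.0042).

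In this list the change with *Mfn1* loss alone was on the positive side, with a median of 0.21 in β-Mfn1KO, none of it called. In Ctrl, *Manf* lay between 7085 and 16424 normalized counts with a median of 12469. Beside it stood 17477, 17501, 14809 and 15182 in β-Mfn1KO, 13033, 13125, 9269, 9787 and 9484 in β-Mfn2KO and 6547, 8325, 6998, 6979.6 and 5911 in β-Mfn1/2DKO. *Manf*, a secreted ER stress factor, had −1.02 ± 0.23 (SE, adjusted p = 0.01) and a change of −0.86 in β-Mfn1/2DKO. The co-chaperones *Dnajb9* and *Dnajc3* had −1.12 ± 0.23 (SE, adjusted p = 0.0045) and −0.66 ± 0.17 (SE, adjusted p = 0.018), the second with a fold under 1.5 when Ctrl replicate 6 was left out (−0.58). With depth class in the fit or with the deep β-Mfn2KO libraries alone 2 genes of the list were called, *Sdf2l1* among them. *Manf*, *Dnajb9* and *Dnajc3* lost their call in both fits, at adjusted p values of 0.099, 0.062 and 0.2 with the latter. Most of *Hsp90b1*, *Calr*, *Pdia6*, *P4hb* and *Hyou1* were thus not called there. Over all alternatives that list held from 2 to 14 called genes. It held 4 without β-Mfn2KO replicate 2 and 5 without β-Mfn1KO replicate 1, β-Mfn2KO replicate 1 or β-Mfn1/2DKO replicate 5.

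Several genes outside these lists fell as steeply. *Fer1l6*, a ferlin family gene, and *Ttyh1*, a chloride channel gene, had −1.89 ± 0.24 (SE, adjusted p = 1.0e-04) and −2.17 ± 0.34 (SE, adjusted p = 5.6e-04). Ctrl libraries held 1538 to 2814 normalized counts of *Fer1l6*, with 2006 at the median. Values were 2512, 2667, 2553 and 2802 in β-Mfn1KO, 2516, 2450.4, 1335, 1889 and 1401 in β-Mfn2KO and 677, 646, 593, 495 and 726 in β-Mfn1/2DKO. β-Mfn1/2DKO stayed below every other library, which the rule for naming the largest synergistic genes required, and β-Mfn1KO lay within the Ctrl range. *Fkbp11*, an ER prolyl isomerase, and *Rhd*, a blood group antigen gene, had −1.85 ± 0.36 (SE, adjusted p = 0.0031) and −1.81 ± 0.36 (SE, adjusted p = 0.0035). For *Tfrc*, the lowest Ctrl library had 4920.2 normalized counts, the highest 5822 and the median was 5095. The β-Mfn1KO libraries had 4787, 5546, 5146 and 4538, the β-Mfn2KO libraries 4246, 4818, 5177, 5496 and 5869.8 and the β-Mfn1/2DKO libraries 2502, 2459, 2580, 2311 and 2131. *Tfrc*, the transferrin receptor for iron uptake, was chosen after its values were seen. It was near constant in the 15 other libraries, with an interaction of −1.05 ± 0.11 (SE, adjusted p = 1.4e-05). Pseudogenes and predicted genes were among the largest as well, at *Bambi-ps1* −2.21, *Gm5860* −2.10 and *Gm10222* −1.86, together with *Gm13340*. All 75-base stretches of *Gm10222* occur in *mt-Nd4l*, and 15.8% of those of *Gm13340* in *mt-Co1* and its copies, so their reads could come from mtDNA transcripts.

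Of the remaining pathway lists, that of cholesterol synthesis and its control held 21 genes with a median of −0.30, and *Idi1* and *Insig1* were among its genes called lower, at −0.78 and −0.63. *Idi1* makes an isoprenoid precursor, and *Insig1* holds back the SREBP pathway. The call of *Insig1* was lost without Ctrl replicate 6, β-Mfn1KO replicate 2 or β-Mfn1/2DKO replicate 3, where the fold was under 1.5, and with depth class or the deep β-Mfn2KO libraries alone (adjusted p = 0.052 and 0.07). Of 14 p53 targets *Phlda3* and *Trp53inp1* were called higher, at 1.49 ± 0.41 (SE, adjusted p = 0.033) and 0.81 ± 0.20 (SE, adjusted p = 0.018), and 0 lower (median 0.39). Over all genes 1.36% were called higher and 1.38% lower. *Phlda3*, an inhibitor of AKT, was highest in β-Mfn1/2DKO replicates 4 and 5 and missed the threshold without any 1 of 7 libraries (up to 0.072). With depth class *Phlda3* and *Trp53inp1* both missed it (adjusted p = 0.19 and 0.083), as they did without β-Mfn1/2DKO replicates 4 and 5 (0.1 and 0.061), and with the deep β-Mfn2KO libraries alone *Phlda3* did (0.21). *Srxn1*, which reduces oxidized peroxiredoxins, was the called member of 15 NRF2 targets at −0.62 (median −0.16), and was lost without any 1 of 7 libraries (up to 0.055), with depth class (0.1), with the deep β-Mfn2KO libraries alone (0.13) and, for its fold, with the replicate number as a block. None of 20 cell cycle genes and 17 immediate early genes was called, with medians of −0.43 and 0.15.

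Markers of cell types were measured beside these lists. In bulk islets, fewer cells of a type and less RNA per cell cannot be told apart. The summed level of the 31 β-cell genes ran from 162600 to 249000 in Ctrl in CPM, counts scaled to a common library total, from 174300 to 217400 in β-Mfn1KO, from 156000 to 207700 in β-Mfn2KO and from 75560 to 100100 in β-Mfn1/2DKO. Insulin mRNA makes up much of these sums. α-, δ- and PP-cell genes held 24780 to 60180 CPM in Ctrl and 37650 to 61010 in β-Mfn1/2DKO, and 0 of the 14 were called (median 0.0099). Endothelial markers were called higher in 6 of 12 genes and lower in 0 (median 0.76), where 1.36% of all genes were called higher, and all 12 had positive estimates. Their summed level ran from 191.2 to 292.6 CPM in Ctrl, from 192.3 to 208.6 in β-Mfn1KO, from 201.1 to 272.1 in β-Mfn2KO and from 285.4 to 442.1 in β-Mfn1/2DKO. *Pecam1*, *Cdh5*, *Eng* and *Kdr*, adhesion and growth factor receptor genes of endothelium, had interactions of 0.94, 0.85, 0.81 and 0.75, and *Emcn* and *Egfl7* 0.82 and 0.64. Of the endothelial markers 3 were called with depth class, with the deep β-Mfn2KO libraries alone or without β-Mfn1/2DKO replicates 4 and 5, and 11 with total counts. The 3 were *Pecam1*, *Cdh5* and *Eng*, so *Emcn* and *Egfl7* were not called in the first 3 of these fits. *Kdr* was lost in those first 3 fits (adjusted p = 0.061 and 0.065, and a fold under 1.5 in the last). The part of cell composition in the β-cell and ER results was not tested.

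Acinar markers varied most. Their summed level ran from 632 to 61670 CPM in β-Mfn1/2DKO, highest in replicates 4 and 5, against at most 2606 in Ctrl, 890.1 in β-Mfn1KO and 9697 in β-Mfn2KO. The median interaction of the 33 genes was 4.11, of which *Prss3* was called higher and *Bhlha15* lower, and 27 were unresolved (17 were called without β-Mfn2KO replicate 4 and 22 by DESeq2). *Prss3* levels reached 1905 normalized counts in Ctrl from a lowest 128 (median 474). They were 16.7, 32.99, 134 and 560.0 in β-Mfn1KO, 147, 1564, 272, 2269 and 425 in β-Mfn2KO and 123.3, 734, 291, 12835 and 154360 in β-Mfn1/2DKO. The trypsinogen *Prss3* was far above the rest in replicates 4 and 5 of β-Mfn1/2DKO alone. Its interaction of 7.24 ± 2.12 (SE, adjusted p = 0.044) became 0.79 without both (adjusted p = 0.89), and it was lost with depth class (0.2), with the deep β-Mfn2KO libraries alone (0.23), with the replicate number as a block (0.3) and without any 1 of 12 libraries (up to 0.20). *Bhlha15*, a secretory cell transcription factor that β-cells express too, had −1.24 ± 0.29 (SE, adjusted p = 0.012), and it missed the threshold with depth class (adjusted p = 0.11) and with the deep β-Mfn2KO libraries alone (adjusted p = 0.12). Duct, stellate, macrophage and Schwann cell markers gave 0 calls in 10, 12, 15 and 10 genes, with medians of 0.80, 0.64, −0.037 and 0.21. With β-Mfn1/2DKO replicates 4 and 5 left out, 562 genes were called, 499 of them among the 784.

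**Figure D4:**
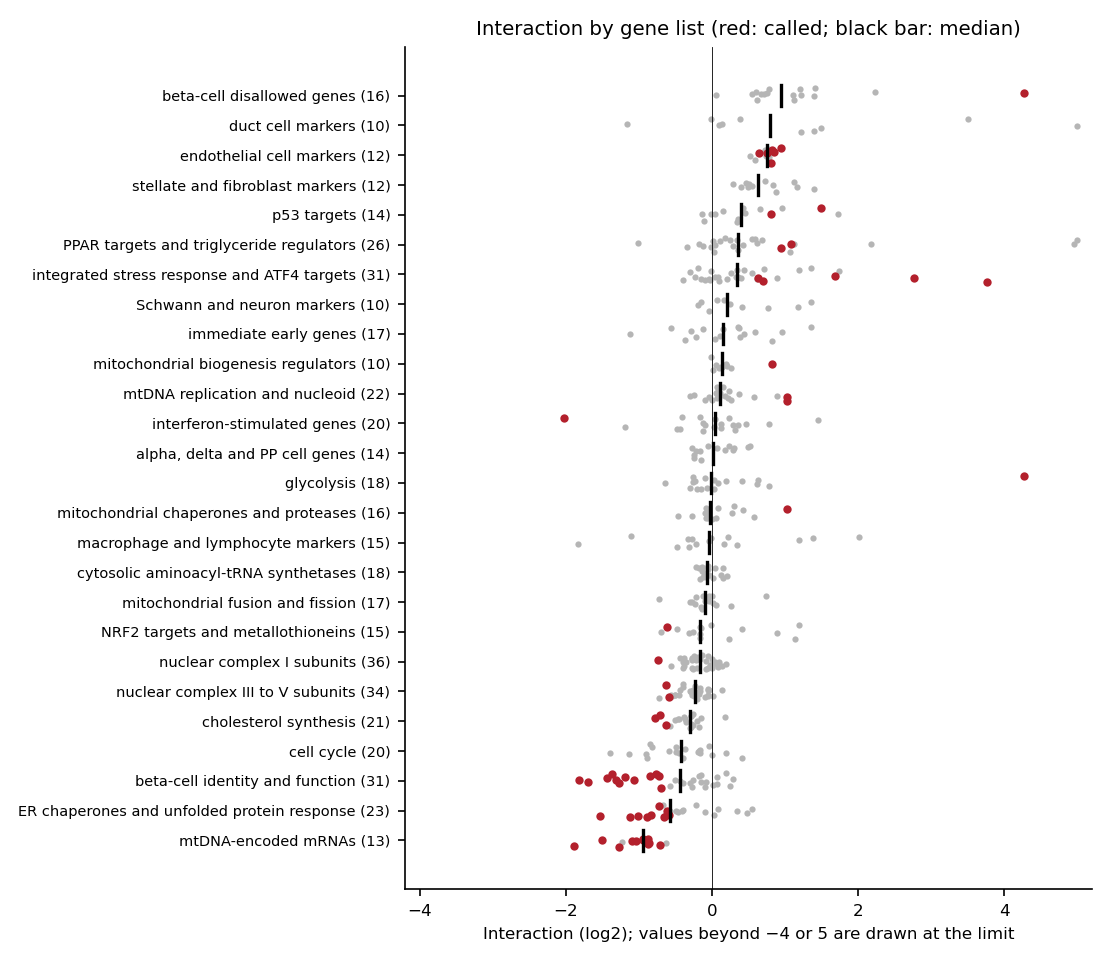
Interaction on the log2 scale (horizontal axis) of each gene of 26 lists, sorted by the list median (black bars), with called genes in red. The mtDNA-encoded mRNAs lie furthest to the left with a median of −0.95 and the disallowed genes furthest to the right with 0.95. The acinar list, with a median of 4.11, is left out, and values beyond −4 or 5 are drawn at the limit.

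Buffered and reversed genes numbered 137, and in 108 of them the larger single change was in β-Mfn1KO. Among genes averaging 100 normalized counts or more, 50 were buffered and 11 reversed. *Rbm20* (chr19:53677306-53867080), a splicing factor gene, had the smallest p. Normalized counts of *Rbm20* in Ctrl spanned 341 to 471 around a median of 443. β-Mfn1KO had 592, 575, 752 and 663, β-Mfn2KO had 657, 583, 759, 616 and 609.6 and β-Mfn1/2DKO had 353, 363, 406, 339 and 354. Every single-knockout library lay above every Ctrl library, and the double knockout overlapped the Ctrl range. Changes were 0.63 in β-Mfn1KO, 0.63 in β-Mfn2KO and −0.20 in β-Mfn1/2DKO, for an interaction of −1.46 ± 0.14 (SE, adjusted p = 1.2e-05). *Rbm20* lies 1.41 Mb from *Ins1*, which holds the Cre in all 3 knockout groups, and has genes on the opposite strand.

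Loss of *Mfn1* alone went with lower values in some genes that were not lower in the double knockout. *Grin2c* ran from 512 to 848 normalized counts in Ctrl (median 685). It stood at 419, 338, 419.7 and 505 in β-Mfn1KO, at 722, 545, 867, 778 and 641 in β-Mfn2KO and at 1148, 1073, 1054, 806 and 1083 in β-Mfn1/2DKO. *Grin2c*, an NMDA receptor subunit, lay below every Ctrl library in β-Mfn1KO and higher in β-Mfn1/2DKO, with changes of −0.70 and 0.60 and an interaction of 1.24 ± 0.21 (SE, adjusted p = 0.0012). *Ltbp2*, a matrix protein, and *Rnf152*, a ubiquitin ligase, had 2.06 ± 0.41 (SE, adjusted p = 0.0034) and 1.29 ± 0.26 (SE, adjusted p = 0.004). *Bmf*, a pro-apoptotic BH3 protein, and *Abca1*, a cholesterol exporter, had 0.84 and 0.59. The call of *Abca1* was lost without any 1 of 9 libraries for a fold under 1.5, and for that reason also by DESeq2 and with the replicate number as a block. None of the single changes of these 5 genes passed the call on its own.

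Others went the opposite way. In Ctrl, *Slc28a2* lay between 166 and 298 normalized counts with a median of 234. Beside it stood 396, 465, 310.4 and 355 in β-Mfn1KO, 375, 413, 215, 199 and 178 in β-Mfn2KO and 119, 125, 97.4, 124 and 109 in β-Mfn1/2DKO. *Slc28a2*, a purine nucleoside transporter, ran above Ctrl in β-Mfn1KO and below every other library in β-Mfn1/2DKO, with −1.95 ± 0.29 (SE, adjusted p = 3.5e-04). It shares 24.7% of its 75-base stretches with *Gm14085*. *Spc25*, a kinetochore gene, and *Dffb*, an apoptotic nuclease, had −0.68 ± 0.13 (SE, adjusted p = 0.002) and −0.66 ± 0.14 (SE, adjusted p = 0.0057). *Mx1* was the called member of 20 interferon-stimulated genes (median 0.036), at −2.02 ± 0.49 (SE, adjusted p = 0.014), with single changes of 0.70 and 1.002 against −0.32 in β-Mfn1/2DKO. *Npy*, a neuropeptide gene, had −2.09 ± 0.61 (SE, adjusted p = 0.043), which was lost without any 1 of 14 libraries (up to 0.086), with depth class (0.098) and with the deep β-Mfn2KO libraries alone (0.13).

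Another set of large interactions came from genes that were nearly silent in whole groups. Ctrl libraries held 29.1 to 5821 normalized counts of *Eno1b*, with 4387 at the median. Values were 13.96, 19.2, 14.9 and 33.3 in β-Mfn1KO, 4643, 4811, 4843, 4461 and 3646 in β-Mfn2KO and 4683, 4788, 4433, 4502 and 1915 in β-Mfn1/2DKO. *Eno1b*, an enolase gene copy, was thus near 0 in all β-Mfn1KO libraries and in Ctrl replicate 1, and high in all others, for an interaction of 7.36 ± 1.05 (SE, adjusted p = 2.6e-04). *Gm4735* followed it, at 2.70 ± 0.47 (SE, adjusted p = 0.0013). Both share most of their 75-base stretches with enolase genes (80.6% and 89.5%), so their reads cannot be assigned with certainty. For *Eno1*, the lowest Ctrl library had 4815 normalized counts, the highest 11676 and the median was 5382. The β-Mfn1KO libraries had 10487, 8177, 10083 and 11141, the β-Mfn2KO libraries 4494, 4608, 5209, 4673 and 5961 and the β-Mfn1/2DKO libraries 4450.4, 4503, 4247, 4342 and 6063. *Eno1*, the glycolytic enolase, was high where *Eno1b* was low. Summed over the 3 genes, the normalized counts were 10683 ± 952 in Ctrl (SD over 6 libraries), 10048 ± 1287 in β-Mfn1KO (4), 9720 ± 419 in β-Mfn2KO (5) and 9121 ± 557 in β-Mfn1/2DKO (5), and the ranges overlap.

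*Zfp990*, a zinc finger gene 2.36 Mb from *Mfn2*, had the same distribution. *Zfp990* levels reached 368 normalized counts in Ctrl from a lowest 0 (median 218). They were 0, 0, 4.97 and 0 in β-Mfn1KO, 288, 250.2, 223, 277 and 354 in β-Mfn2KO and 415, 442, 419, 308 and 376 in β-Mfn1/2DKO. It had counts in 1 of the 4 β-Mfn1KO libraries and none in Ctrl replicate 1, and its interaction was 7.58 ± 1.10 (SE, adjusted p = 3.0e-04). Fitted folds against values at 0 depend on the prior count and are no measure of size. *Cldn11*, a tight junction gene 1.38 Mb from *Mfn1*, was low in β-Mfn2KO instead. Normalized counts of *Cldn11* in Ctrl spanned 49.1 to 1634 around a median of 861. β-Mfn1KO had 1929, 2084, 1324 and 1464, β-Mfn2KO had 53.6, 40.2, 40.4, 28.8 and 49.5 and β-Mfn1/2DKO had 701, 1162, 632, 979 and 849. Ctrl replicates 2 and 4 were as low as β-Mfn2KO. The interaction of 3.21 ± 0.80 (SE, adjusted p = 0.018) missed the threshold with depth class in the fit (adjusted p = 0.065) or the deep or shallow β-Mfn2KO libraries alone (0.086 and 0.074). On the count scale the estimate was −120 ± 324 (SE), so its sign there is not resolved.

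Genes whose start lay within 5 Mb of an engineered locus were counted apart. Around *Mfn1*, 3 of 108 genes had a called interaction (2.78%), around *Mfn2* 14 of 178 (7.87%) and around *Ins1* 3 of 66 (4.55%), against 2.74% of all genes. Of the 14 near *Mfn2*, 8 were synergistic and 6 buffered or reversed.

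**Figure D5:**
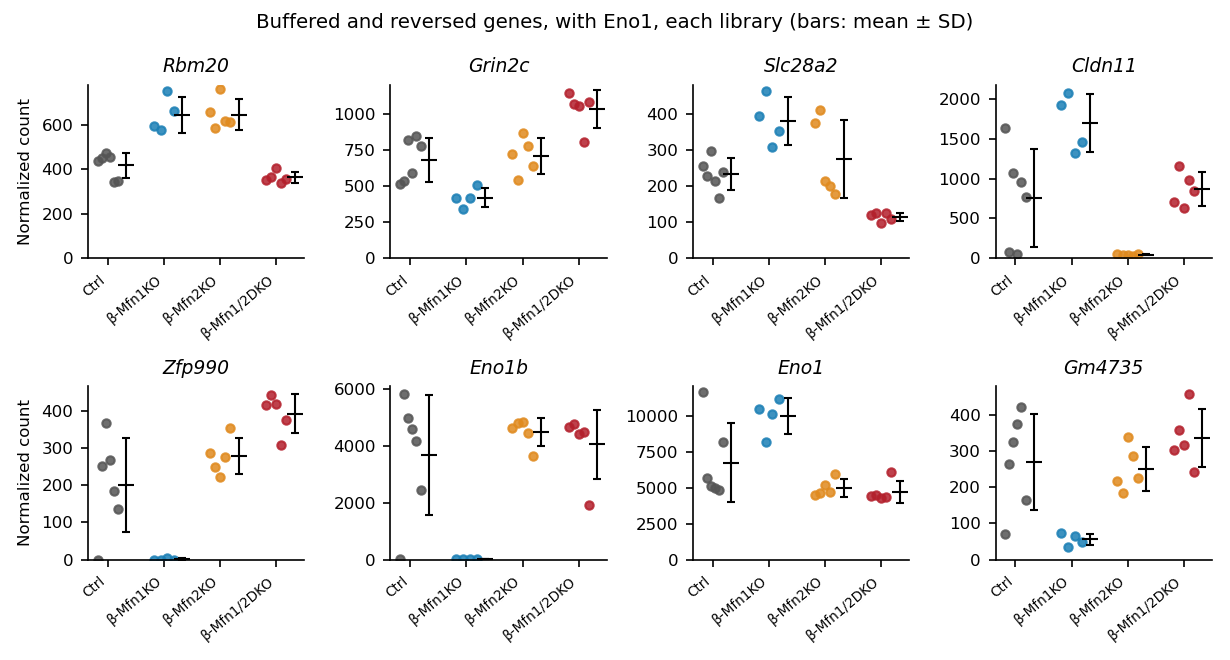
Normalized counts (vertical axes, from 0) of 7 buffered or reversed genes and *Eno1* in every library of the 4 groups, with mean ± SD beside the points. *Rbm20* is raised in both single knockouts and not in β-Mfn1/2DKO. *Zfp990* and *Eno1b* lie near 0 in β-Mfn1KO and in Ctrl replicate 1, and *Cldn11* lies low in β-Mfn2KO and in Ctrl replicates 2 and 4.

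Additive responses were rarely resolved. Of the 1491 genes called in β-Mfn1/2DKO against Ctrl, 509 had a called interaction (34.1%) and 19 were additive, in that the 95% interval of the interaction lay within 1.5-fold either way (12 higher and 7 lower in β-Mfn1/2DKO; 12 in all without β-Mfn1KO replicate 4). The other 963 were unresolved (64.6%), and in 843 of them the estimate had the sign of the change in β-Mfn1/2DKO. The 95% interval reached a median of 0.31 to either side of the estimate on the log2 scale in the additive genes and 0.96 in the unresolved ones. A missed threshold there does not show additivity.

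Besides *Mfn1* and *Mfn2*, 6 additive genes were named. *Th* ran from 639.6 to 1528 normalized counts in Ctrl (median 940.3). It stood at 916, 720.4, 767 and 715 in β-Mfn1KO, at 829.4, 802, 797, 732 and 625.4 in β-Mfn2KO and at 599.6, 582, 514, 496 and 621 in β-Mfn1/2DKO. *Th*, the rate-limiting enzyme of catecholamine synthesis, stood at −0.43, −0.48 and −0.90 on the log2 scale in β-Mfn1KO, β-Mfn2KO and β-Mfn1/2DKO, with an interaction of 0.0055 ± 0.25 (SE). *Cped1* stood at −0.43, −0.25 and −0.63. In Ctrl, *Gstm7* lay between 64.0 and 106 normalized counts with a median of 78.1. Beside it stood 114, 99.0, 84.4 and 152 in β-Mfn1KO, 116, 118, 88.8, 99.3 and 108 in β-Mfn2KO and 172, 177, 141, 147 and 130.2 in β-Mfn1/2DKO. *Gstm7*, a glutathione transferase, stood at 0.51, 0.42 and 0.96, so that the single changes added to nearly the double one. *Fam151b*, *Rpp40* (an RNase P subunit) and *Fam163a* reached 0.73, 0.64 and 0.78 in β-Mfn1/2DKO, against sums of 0.78, 0.60 and 0.78. None of the single changes of these 6 genes was called, while each change in β-Mfn1/2DKO was.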

How the data were processed

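RNAseq of whole islets was deposited as 1 table of 20 libraries. Per the labels and the study's methods, the authors trimmed reads with cutadapt 2.3, checked them with FastQC 0.11.8, aligned them to GRCm38 with STAR 2.6.1b and estimated gene counts with RSEM 1.3.1. The deposited values are expected counts, already whole numbers without normalization; a depth-normalized table made with DESeq2 1.26.0 was not used here. Whether counting used strand is not given in the sources used here, so genes overlapped on the opposite strand (*Mfn2*, *Manf*, *Slc2a2*, *Nrf1*, *Ttyh1*, *Ltbp2* and others) are uncertain. No pair of libraries was identical, and 0 columns were left out.

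All 28632 genes were fitted with edgeR 4.0.16 in R 4.3.3 (TMM, estimateDisp, glmQLFit, glmQLFTest) in 1 model with a coefficient per group and no covariate, which is the design of the study's groups with edgeR in place of its DESeq2. The interaction was the contrast of β-Mfn1/2DKO minus β-Mfn2KO against β-Mfn1KO minus Ctrl. The thresholds were an adjusted p (Benjamini-Hochberg) under 0.05 and a fold over 1.5. A standard error is the size of a log2 value over the square root of its F statistic. Synergistic, buffered and reversed are descriptions of called genes by their fitted changes, and additive needs a 95% interval within 1.5-fold. IDs were matched to GENCODE M21 (28579 of 28632), promoters came from RefSeq on GRCm38.p6, and shared sequence was counted as 75-base stretches found in another gene. No protein sequence table was used here.

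Genes were named by a rule: *Mfn1*, *Mfn2* and *Ins1*, the 12 largest called interactions in each direction averaging 100 normalized counts or more and, if synergistic, no overlap between β-Mfn1/2DKO and the other libraries, the 12 buffered or reversed genes of smallest p, the additive genes of largest change (at most 4 per direction), the genes of the study's RNAseq text, and up to 4 genes per list by p. Members and lists were chosen with earlier results of these data known. Lists were counted and not tested. Some genes and sequences that these rules take in are not reported here.

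Alternatives tried were DESeq2 1.42.0, size factors of DESeq2 in edgeR, total counts, filterByExpr, replicate number as a block, sex, depth class (above 40 M counts) or acinar score as covariates, counts drawn down to the smallest total, the deep β-Mfn2KO libraries alone, β-Mfn1/2DKO replicates 4 and 5 left out, other thresholds, each library left out in turn and the count scale. Replicate number with sex, the shallow β-Mfn2KO libraries alone, and Ctrl replicate 1 left out with β-Mfn1/2DKO replicates 4 and 5 were added after the data were seen. Tables were handled with Python 3.11.15 and pandas 2.3.3, and figures drawn with Matplotlib 3.10.9.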

Additional observations from a re-analysis of the deposited data

Results flagged for a closer look

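The change that came with loss of *Mfn1* differed with and without *Mfn2* in 784 genes, by the test of the difference itself described above. In 348 combinations of a named gene and a group, 22 had a library whose gap to the nearest other one was large against the range of the group (6.32%), by a rule that chance meets in about 1 of 20 groups.

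Replicate 4 of β-Mfn1KO, the only male of its group, stood low in mitochondrial genes, at 42828 normalized counts of *mt-Nd2* and 54956 of *mt-Nd5*, and also at 6844 of *Yme1l1*. Replicate 3 of β-Mfn2KO stood apart from the rest of its group in 4 genes. It was high for *Vmn2r3* (202), *Cpt1a* (3214) and *Nrf1* (2482) and low for *mt-Nd2* (32253).

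Replicate 6 of Ctrl was the highest of its group for *Phyhd1* (62.3), *Stbd1* (747), *Tfrc* (5822) and *Rpp40* (199), and replicate 2 for *Fam163a* (637). Replicate 5 of β-Mfn1/2DKO stood high for *Prss3* (154360) and *Eno1* (6063) and low for *Eno1b* (1915) and *Gdap1* (3019.8). In the same group replicate 4 was low for *Grin2c* (806).

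Among the β-Mfn2KO libraries replicate 4 was high for *Stc2* (146) and *Mfn1* (1807). Of the β-Mfn1KO libraries replicate 1 was high for *Ttyh1* (3869) and *Stbd1* (449), and replicate 3 was the 1 with counts of *Zfp990* (4.97).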

How the results depend on the processing

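The 784 interaction calls kept their sign in every fit with a value for them, while their number moved. DESeq2 called 1076 genes (718 of the 784), DESeq2 size factors 790 (747), total counts 998 (631), filterByExpr 904 (736), sex as a covariate 738 (703), counts drawn down to the smallest total 754 (637), depth class 550 (448), the deep β-Mfn2KO libraries alone 553 (444), the shallow ones alone 765 (593), acinar score 654 (573), without β-Mfn1/2DKO replicates 4 and 5 562 (499), and with Ctrl replicate 1 out as well 653 (560). Depth and genotype overlap so far that depth class rests on the β-Mfn2KO libraries, and the cause of the lower counts was not tested.

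The replicate number as a block gave 635 calls (599 shared), and number with sex 644 (596). Same-numbered libraries did not all deviate together: 21 of 27 pairs had a correlation over 0.1 (from −0.102 to 0.579), and 10 of 20 libraries correlated best with their own number.

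Without a fold threshold, 1694 genes had an interaction, 1452 were synergistic, 198 buffered, 1776 additive, and 3719 changed on loss of *Mfn1* with *Mfn2* absent. At an adjusted p under 0.01 these were 416, 384, 18 for the first 3, 675 on loss of *Mfn1* with *Mfn2* absent and 3 with it present. Buffered genes, 93 here, numbered 156 by DESeq2, 54 with the replicate block, 59 with block and sex, 25 with depth class, 57 with acinar score and 37 without β-Mfn1/2DKO replicates 4 and 5. Additive genes, 19 here, numbered 9 in drawn-down counts, 6 with depth class, 10 with shallow β-Mfn2KO libraries and 12 with Ctrl replicate 1 and β-Mfn1/2DKO replicates 4 and 5 out. Loss of *Mfn1* with *Mfn2* present gave 12 by DESeq2 and 24 with those 3 libraries out. Leaving out each library in turn gave 597 to 895 interaction, 505 to 729 synergistic, 45 to 150 buffered and 12 to 28 additive genes, 3 to 21 on loss of *Mfn1* with *Mfn2* present and 877 to 1164 with it absent.

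Additive genes have interactions near 0, so their sign turned often. *Th* gave −0.016 by DESeq2, −0.014 with its size factors, −0.0021 with filterByExpr, −0.14 with the replicate block, −0.15 with block and sex, −0.096 in drawn-down counts and −0.098 with shallow β-Mfn2KO libraries. *Cped1* gave −0.016 with the block, −0.015 with block and sex, −0.00096 with sex, −0.053 with acinar score, −0.15 without β-Mfn1/2DKO replicates 4 and 5 and −0.10 with Ctrl replicate 1 out too. *Fam151b* gave 0.080 in that last fit, 0.037 without the 2 libraries, 0.094 with deep β-Mfn2KO libraries, 0.080 with depth class, 0.10 in drawn-down counts, 0.051 with acinar score and 0.084 with total counts. *Fam163a* gave 0.15 in both fits without those libraries, 0.054 with sex, 0.032 with the block, 0.064 with block and sex, 0.083 with acinar score, 0.13 with total counts and 0.068 with shallow β-Mfn2KO libraries. *Rpp40* gave −0.049 in drawn-down counts, −0.087 with the block and −0.091 with block and sex. With 1 library left out the values ran from −0.13 to 0.11 for *Th*, −0.085 to 0.21 for *Gstm7*, −0.12 to 0.049 for *Fam151b*, −0.099 to 0.14 for *Rpp40*, −0.059 to 0.15 for *Cped1* and −0.22 to 0.077 for *Fam163a*. On the count scale *Cldn11* gave −120 ± 324 (SE) and *Ins1* 110970 ± 152590 (SE). Through the alternatives 87 genes of the text were followed, and 69 of these were called. Other called genes named in the text were not followed, among them *Gipr*, *Hsp90b1* and *Hyou1* (adjusted p = 0.0496, 0.046 and 0.043). The 69 genes had 2346 values under the alternatives on the log2 scale, of which 2160 kept the call, 186 lost it and 0 turned. Of the 69, 47 genes kept it in every fit with all libraries of a group or with a preset subset.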
